A study of Rattus norvegicus with 36 samples.

Results

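Mammary cancers that followed methylnitrosourea (MNU), an alkylating agent that methylates DNA, and carried no H-ras mutation were compared with mammary cancers that arose without treatment. Of the 36 arrays of the series, 7 belong to these groups by their labels, 4 to the MNU cancers labelled H-ras nonmutated and 3 to the spontaneous cancers, and all 11773 genes measured were compared. Both groups are labelled H-ras nonmutated, so H-ras status is the same and exposure to MNU is what the labels set apart. All rats were female Sprague-Dawley, bought at 5 weeks of age and switched at 9 weeks to a feed of which 23.5% was corn oil. The MNU group received a single agent, MNU at 40 mg/kg by intraperitoneal injection at about 7 weeks, and no radiation. The spontaneous group received neither. For context, values are also given for the other induced cancers without H-ras mutation (15 arrays: 4 after 1 Gy of gamma radiation, 3 after the food mutagen PhIP, 4 after radiation plus MNU, 4 after radiation plus PhIP), for 5 MNU cancers with an H-ras mutation, and for normal mammary tissue from 3 untreated rats. The sources used here give neither the age of the rats when the cancers were taken nor whether each cancer came from its own rat, so p-values measure the spread between these samples, which may be partly technical.

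MNU given to young rats is a standard way to induce mammary cancer, and many such cancers carry an activating mutation of H-ras, which encodes a switch in growth factor signalling. Others lack it, and rats of this strain also develop mammary cancers with no carcinogen. The mammary epithelium has luminal cells, which respond to ovarian hormones and prolactin and can make milk proteins, and contractile basal cells.

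Levels are log2(intensity + 42.8) of the deposited array signals, so a difference of 1 is a doubling of the sum of intensity and added constant. Fold values are on the scale of that sum, and differences of weakly expressed genes are understated. Differences are MNU nonmutated minus spontaneous, with the standard error (SE) of a model fitted to all 36 arrays with limma. A gene passed the test when its p-value, adjusted over all genes by the Benjamini-Hochberg method, was under 0.05. Luminal markers were high on all 7 arrays (mean level of the 15 measured between 11.27 and 11.63), as were basal markers (12 measured, 10.79 to 11.54). Adipocyte markers were low on the 7 arrays (7.57 to 8.18) beside normal tissue (10.96 to 11.57).

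Array 4 of the MNU group stood apart from the other arrays. Its correlations with the other 6 arrays were 0.885 to 0.912, against 0.930 to 0.972 among those 6. Its ratio of 3′ to 5′ signal for the control transcript hexokinase was 12.25, against 1.66 to 2.73 on the other 6, and its median intensity was the lowest of the 7 at 161.4. Results are therefore given with and without it where it matters. The 3′ to 5′ ratio of β-actin did not overlap between the groups (1.32 to 1.66 on MNU arrays, 1.18 to 1.31 on spontaneous ones). An exact two-sided permutation test of that ratio over 35 arrangements gave p = 0.0571, or 0.286 adjusted over 5 quality measures, where 0.0286 is the smallest p possible.

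Of 11773 genes, 5 (0.0425%) passed, all lower in the MNU cancers: Stc1, Gpr37, Ptprd, Vsnl1 and Ppp2r5d. No gene passed as higher with limma, although 369 genes (3.13%) were higher at an unadjusted p under 0.05 and 614 (5.22%) were lower. With quantile normalization or with each array centred on its median, the split became 1 higher and 3 lower, the higher gene being Ctu2. Over all genes the median difference was -0.02, and 53.4% of genes had a difference below 0 and 46.6% above. Every MNU array lay below every spontaneous one for 5.51% of genes and above for 3.55%. The number depended on the setting. With array weights, whose estimation stopped before it converged, 411 genes passed (144 higher, 267 lower), and with a fit of the 7 arrays alone 0 did (911 at an unadjusted limma p under 0.05). With the actin ratio as a covariate, a setting chosen after the data were seen, no gene passed (391 at an unadjusted p under 0.05). The count was 8 without MNU array 1 (4 higher and 4 lower, with 3 of the 5 genes among them), 2 without MNU array 2, 3 (0.0255%, all lower) without MNU array 4 and 2 without spontaneous array 2.

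**Figure D1:**
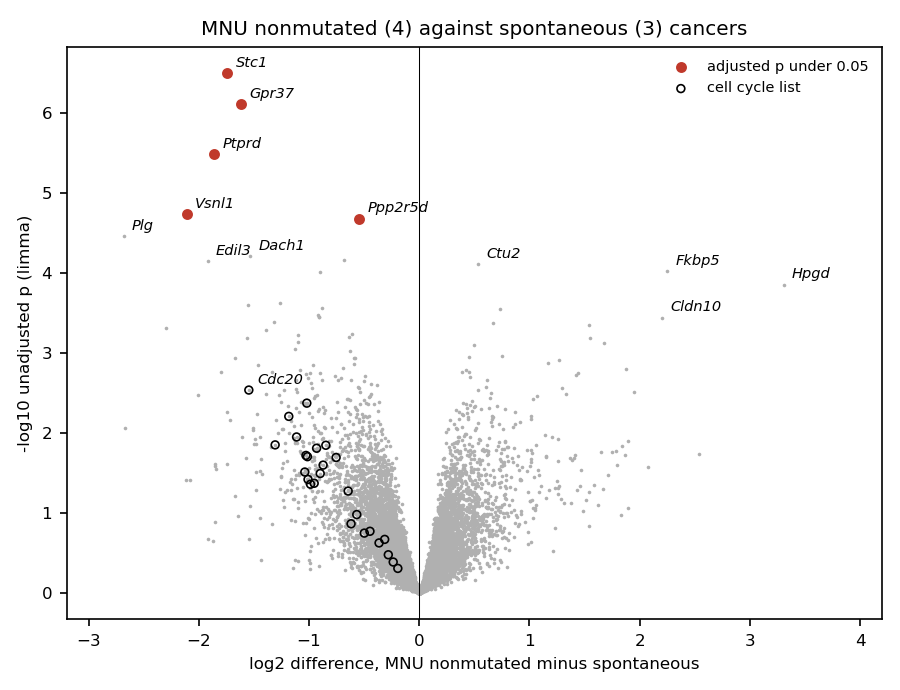
Log2 difference (MNU nonmutated minus spontaneous, horizontal) against -log10 of the unadjusted limma p (vertical) for 11773 genes. Red points are the 5 genes with adjusted p under 0.05, all to the left of 0, and open circles are the 26 measured cell cycle genes, which also lie to the left of 0.

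Stc1, encoding the secreted glycoprotein stanniocalcin 1, had the smallest adjusted p. Its levels were 9.16, 9.02, 8.99 and 8.23 on MNU arrays 1 to 4 and 11.46, 10.27 and 10.04 on the spontaneous arrays. Every MNU array lay below every spontaneous one, by 3.35-fold between the means (difference -1.74 ± 0.26 SE, limma adjusted p = 0.00373). Both other probe sets for Stc1 also read lower, by -1.75 and -2.06. Without MNU array 4 the difference was -1.53 (limma adjusted p = 0.0188).

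Gpr37 encodes an orphan receptor coupled to G proteins. It read 10.37, 9.21, 9.75 and 10.03 on the MNU arrays and 11.47, 11.23 and 11.67 on the spontaneous arrays, with no overlap (-1.62 ± 0.26, limma adjusted p = 0.00454). In normal tissue its mean was 6.75 ± 0.27 (SD, n = 3), so both cancer groups stood above normal tissue and the spontaneous cancers further above. The call was kept without MNU array 4 (-1.68, limma adjusted p = 0.0188).

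Ptprd, a receptor-type tyrosine phosphatase, read 7.96, 7.54, 7.53 and 7.99 in the MNU cancers and 9.17, 9.92 and 9.76 in the spontaneous cancers. The groups did not overlap (-1.86 ± 0.32, limma adjusted p = 0.0128). Of its other probe sets, 1 read lower by -1.14, and 1 that exceeded the filter level on no array gave 0.06. The call was lost without MNU array 2 (-1.79), spontaneous array 2 (-1.71) or spontaneous array 3 (-1.79), each with the same direction.

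Vsnl1 encodes visinin-like 1, a calcium sensor best known from neurons. Its levels were 7.62, 7.43, 7.80 and 7.89 in the MNU cancers and 9.15, 11.42 and 8.82 in the spontaneous cancers (-2.11 ± 0.41, limma adjusted p = 0.0492). The groups did not overlap, but spontaneous array 2 stood far above its group, and without it the difference was -1.30 and did not pass. Leaving out any 1 MNU array also lost the call, at differences of -2.18 to -2.02, and the probe set exceeded the filter level on only 11 of 36 arrays.

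Ppp2r5d, a regulatory subunit of protein phosphatase 2A, showed a small difference with little spread. It read 9.90, 9.97, 9.97 and 9.70 in the MNU cancers and 10.36, 10.56 and 10.36 in the spontaneous cancers, again with no overlap (-0.54 ± 0.11, limma adjusted p = 0.0492). Its second probe set gave -0.49. The call was lost on leaving out any 1 of the 7 arrays, with differences of -0.57 to -0.48.

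**Figure D2:**
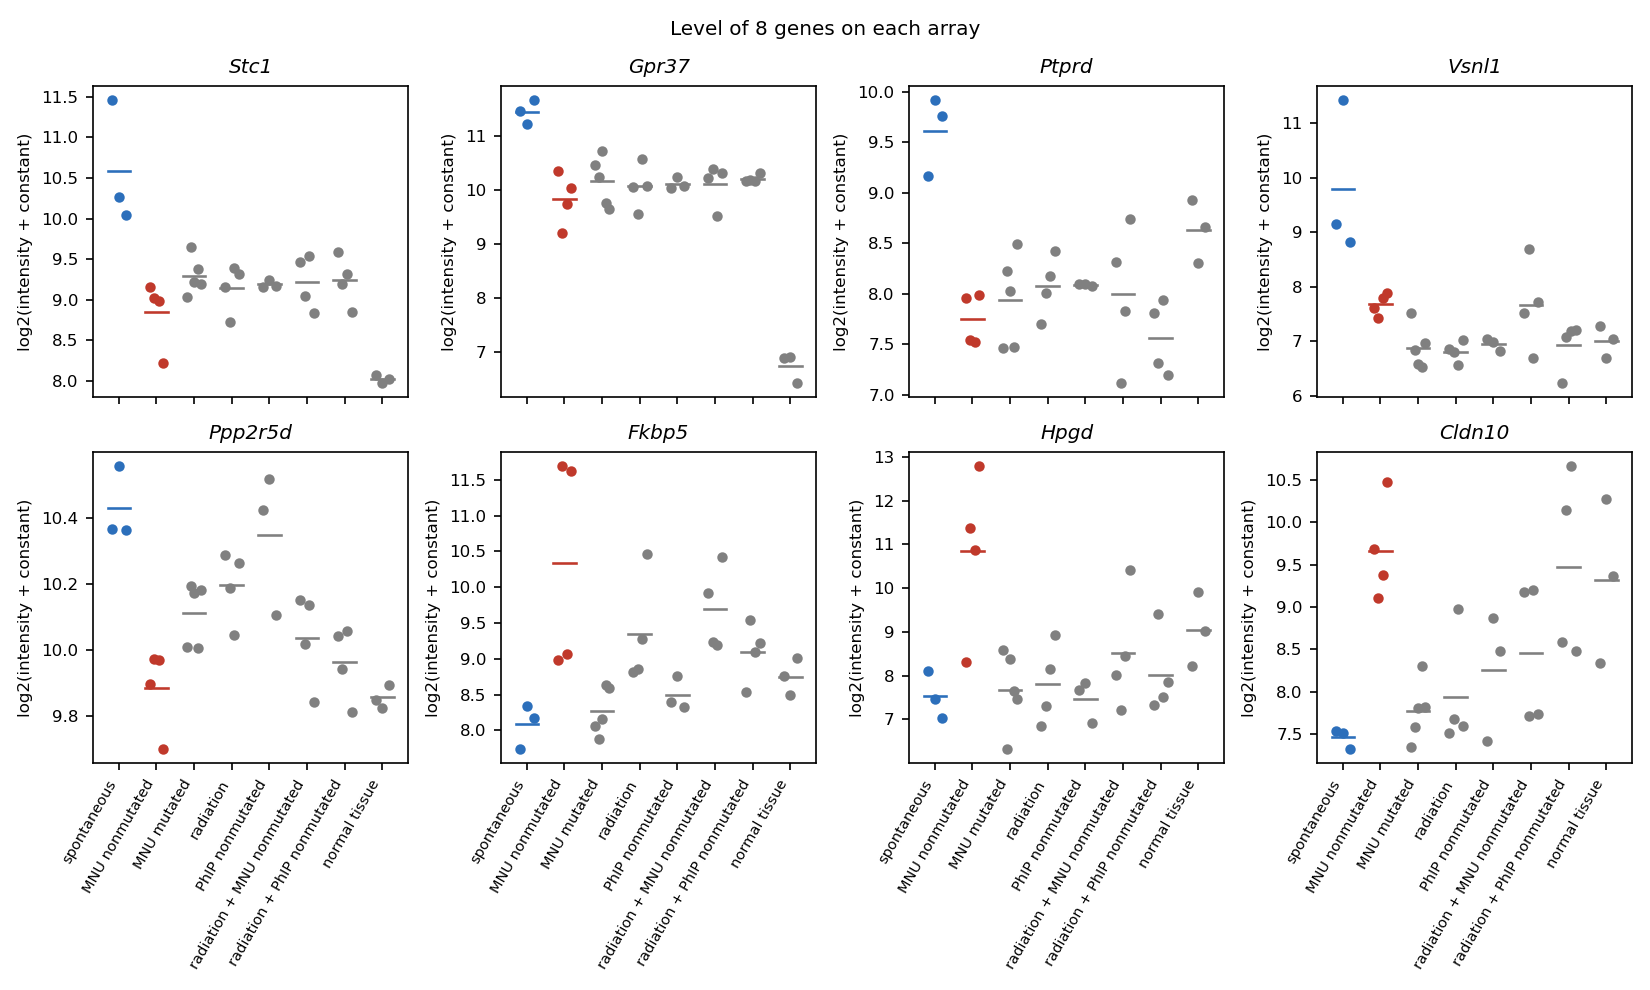
Level, as log2(intensity + 42.8), of 8 genes on each array of 8 groups, with 1 point per array and a line at the group mean; each panel has its own vertical range. The spontaneous cancers (blue) lie above the MNU nonmutated cancers (red) for Stc1, Gpr37, Ptprd, Vsnl1 and Ppp2r5d and below them for Fkbp5, Hpgd and Cldn10, and for Stc1 and Gpr37 the means of the induced cancer groups shown lie between 8.85 and 9.30 and between 9.84 and 10.21.

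The 5 genes were then read in the other induced cancers. Against the mean of the 4 other induced nonmutated groups, which involves no spontaneous array, none of the 5 genes passed in the MNU nonmutated cancers. Those differences were -0.35 ± 0.20 for Stc1, -0.29 ± 0.19 for Gpr37, -0.18 ± 0.24 for Ptprd, 0.60 ± 0.30 for Vsnl1 and -0.25 ± 0.08 for Ppp2r5d, with limma adjusted p between 0.656 and 0.956. Across the genome that comparison gave 0 genes (0%) past the limma threshold and 702 (5.96%) at an unadjusted p under 0.05. It gave 1 gene without MNU array 1 (Hpgd, 3.72) and 2 without MNU array 4 (Gsdma at 1.30 and Adgrg2 at 1.28, both named after their values were seen).

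The MNU cancers with an H-ras mutation were set against the same spontaneous arrays, so the values are not independent of those above. In them Vsnl1 differed by -2.91 ± 0.39, Ptprd by -1.68 ± 0.31, Stc1 by -1.29 ± 0.25 and Gpr37 by -1.29 ± 0.25, and these 4 passed among 10 genes that did (0.0849%). Ppp2r5d differed by -0.32 ± 0.10 and did not pass (limma adjusted p = 0.332). Without MNU mutated array 1 or 4 that count of 10 fell to 1, which was Vsnl1 (-3.07 and -2.81). It was 2 without MNU mutated array 3 or spontaneous array 2, 3 without spontaneous array 1 and 5 without MNU mutated array 5.

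Beyond the 5, the genes with the smallest p-values included several with large differences that did not pass. Plg, which encodes plasminogen, the precursor of the protease plasmin, read 7.20, 6.50, 8.32 and 7.48 in the MNU cancers and 10.02, 10.40 and 9.75 in the spontaneous cancers (-2.68 ± 0.55, limma adjusted p = 0.0685). No MNU array reached a spontaneous one. The transcriptional cofactor gene Dach1 read 9.04 to 9.49 against 10.53 to 10.89 (-1.54 ± 0.33), also with no overlap. Edil3, a secreted integrin ligand, differed by -1.92 ± 0.42, the transcription factor gene Trerf1 by -0.90 ± 0.20 and Misfal by -0.68 ± 0.15. The limma adjusted p for these 4 lay between 0.0910 and 0.0947, and Edil3 and Misfal exceeded the filter level on 6 and 3 of 36 arrays.

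Higher values in the MNU cancers were seen for Hpgd, Fkbp5 and Cldn10, none of which passed. Hpgd encodes the dehydrogenase that inactivates prostaglandins, and its levels were 8.32, 11.37, 10.88 and 12.79 in the MNU cancers and 8.10, 7.47 and 7.03 in the spontaneous cancers. All 4 MNU arrays were higher, array 1 by little and the other three by far (3.31 ± 0.75, limma adjusted p = 0.127), and the second probe set gave 4.34. Against the other induced nonmutated cancers Hpgd differed by 2.88 ± 0.56, the smallest adjusted p of that comparison with limma at 0.149. Without MNU array 1 the difference from the spontaneous cancers was 4.15 and passed.

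Fkbp5 encodes a co-chaperone of steroid receptors and is induced by glucocorticoids and progestins. It read 8.98, 11.69, 9.07 and 11.62 in the MNU cancers and 7.74, 8.35 and 8.17 in the spontaneous cancers (2.25 ± 0.50, limma adjusted p = 0.0947). Arrays 2 and 4 were high and arrays 1 and 3 only just above the spontaneous range, and leaving out array 1 or array 3 brought the gene past the threshold (2.70 and 2.68). Tsc22d3, the glucocorticoid-induced leucine zipper gene, was looked up after these values were seen. It read 11.72, 12.12, 11.43 and 12.28 against 11.17, 9.97 and 10.27 (1.42 ± 0.42, limma adjusted p = 0.374).

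Cldn10, a tight junction claudin, read 9.68, 9.11, 9.38 and 10.48 in the MNU cancers and 7.54, 7.51 and 7.33 in the spontaneous cancers (2.20 ± 0.55, limma adjusted p = 0.203). The spontaneous arrays lay close together, and every MNU array was higher. Smaller differences were measured for Ctu2, which acts in tRNA thiolation (0.53 ± 0.12, limma adjusted p = 0.0910), the pseudouridine synthase-like gene Pus7l (0.73), Klhl36 (0.67), the lysophospholipase gene Pnpla7 (1.54), Nxpe2 (1.55), Ifitm10 (1.68) and the calcineurin subunit gene Ppp3r1 (0.50). The second probe set for Pnpla7 gave 0.00, so that value rests on 1 probe set.

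Cell cycle genes lay lower together in the MNU cancers. Of 27 members 26 were measured, and all 26 had a difference below 0, with a median of -0.89 against -0.02 for all genes. None passed with limma over all genes, and 16 of the 26 had an unadjusted p under 0.05, where 5.22% of all genes did so as lower. With array weights 17 of the 26 were called lower, in a setting that called 267 of 11773 genes lower. In 12 every MNU array lay below every spontaneous one, where 5.51% of all genes did so. The 12 were Cdc20, Ccna2, Bub1b, Ccne2, Mki67, Aurka, Cdk1, Top2a, Ube2c, Kif11, Birc5 and Mcm4. These are counts, without a test of the list, whose genes are expressed together and were chosen with earlier results known.

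On the probe sets used, the genes with the largest differences of the list were Cdc20, Ccna2, Bub1b and Ccne2. Other probe sets also read lower but by less: -0.71, -0.67, -0.53 and -0.16 for Cdc20, and -0.25 for Ccne2. The Cdc20 probe set at -0.67 was above the filter level on 36 arrays and the Ccne2 one on 34. Cdc20, the activator of the anaphase-promoting complex, read 8.85, 9.28, 8.09 and 9.77 in the MNU cancers and 10.09, 10.68 and 10.86 in the spontaneous cancers (-1.55 ± 0.48, limma adjusted p = 0.421). Bub1b, of the spindle checkpoint, read 7.69, 8.07, 7.19 and 8.68 against 8.87, 8.97 and 9.42 (-1.18 ± 0.40). MNU array 4 was the highest of its group for both of these and still below the spontaneous arrays. The cyclin A2 gene Ccna2 read 8.42, 9.02, 8.02 and 9.83 against 9.96, 10.07 and 10.36 (-1.31 ± 0.50), and Ccne2, for a cyclin of entry into S phase, read 7.96, 8.12, 7.08 and 8.19 against 8.63, 9.15 and 9.07 (-1.11 ± 0.41). In both, array 4 was again the highest of the MNU arrays. The proliferation marker Mki67 read 9.71, 10.48, 9.18 and 10.30 against 10.79, 11.05 and 11.02 (-1.04 ± 0.46). Top2a, the topoisomerase that untangles replicated DNA, read 9.92, 10.54, 9.63 and 10.73 against 10.85, 11.24 and 11.32 (-0.93 ± 0.36). The mitotic genes Birc5 and Ccnb2 differed by -0.75 and -0.62. Differences of the replication helicase genes Mcm2 to Mcm6 ran from -0.65 for Mcm4 to -0.28 for Mcm5, and Tyms, for thymidylate synthase, had the smallest at -0.19 ± 0.28.

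As a mean over the 26 genes, the list stood at 8.91, 9.49, 8.62 and 9.70 in the MNU cancers and 9.74, 10.04 and 10.14 in the spontaneous cancers. The groups did not overlap, but MNU array 4 lay only just under the lowest spontaneous array. Without MNU array 4 the median difference was -1.06. With the actin ratio as a covariate it was -0.37, with 23 of 26 genes below 0, and the part of RNA quality in the result was not tested further. The group mean was 9.18 ± 0.50 in the MNU nonmutated cancers (SD, n = 4) and 9.00 ± 0.32 in the MNU cancers with an H-ras mutation (n = 5). Group means of the list elsewhere were 9.48 ± 0.43 after radiation (SD, n = 4), 9.80 ± 0.87 after PhIP (n = 3), 9.00 ± 0.23 after radiation plus MNU (n = 4), 9.31 ± 0.19 after radiation plus PhIP (n = 4) and 8.59 ± 0.40 in normal tissue (n = 3). In bulk tissue, fewer dividing cells and less RNA per cell cannot be told apart.

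**Figure D3:**
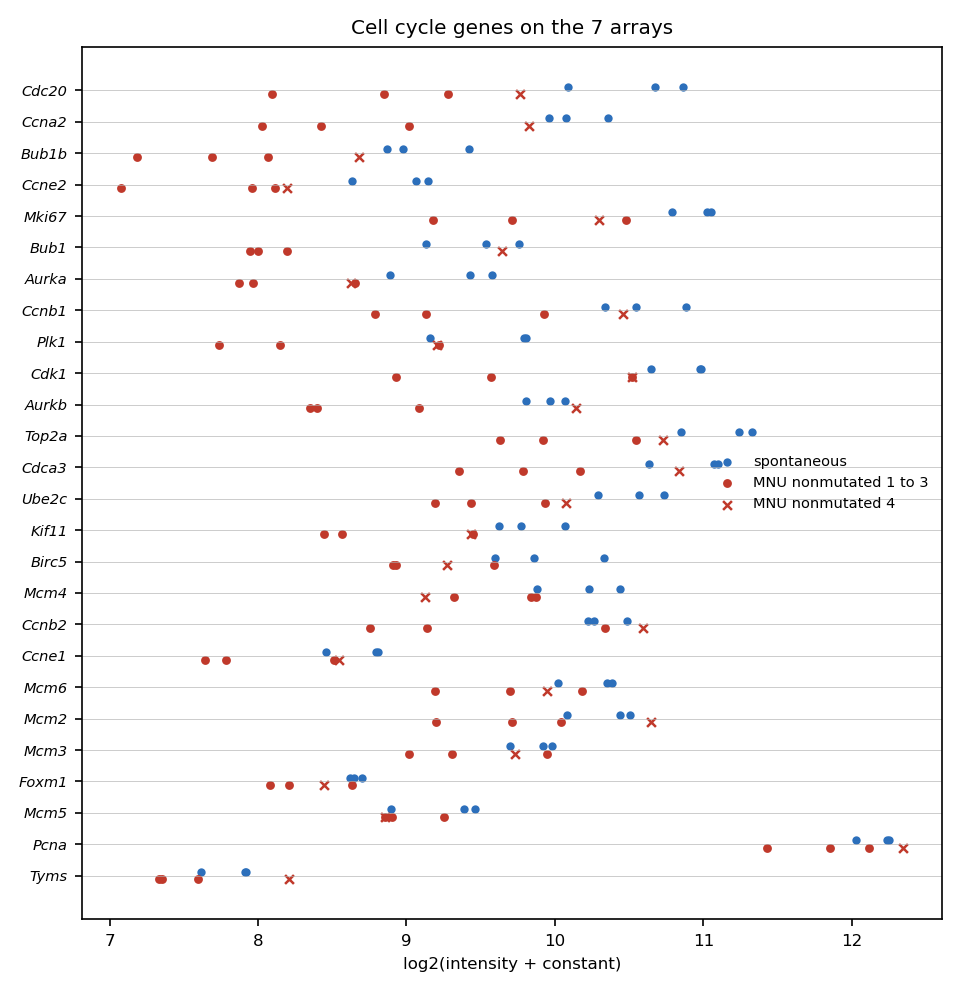
Level, as log2(intensity + 42.8), of the 26 measured cell cycle genes on the 3 spontaneous (blue) and 4 MNU nonmutated arrays (red, array 4 as a cross), ordered by mean level difference from the most negative at the top (Cdc20) to Tyms at the bottom. Blue points lie mostly to the right, and the cross of array 4 is often the red mark nearest to them.

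The promoters of these genes are shown because the genes lay lower together, and promoters of mitotic genes are known for CCAAT boxes, bound by NF-Y, and for the cell cycle genes homology region (CHR), bound by repressor and activator complexes of the cell cycle. In RefSeq sequences of build GRCr8, 20 of the 26 genes had an entry; Aurkb, Ccna2, Ccne2, Foxm1, Mcm4 and Ube2c, and of the 5 genes that passed Stc1, had none. In the 250 bases before the start, searched on both strands, CCAAT (or ATTGG) was found in 70% of the 20 promoters and in 34.0% of all 33469, TTTGAA (or TTCAAA, the CHR core) in 35% and 16.2%, and the GC box GGGCGG (or CCGCCC) in 65% and 30.5%. The 33469 entries cover 27457 symbols, so their shares are not those of the genes measured here. A match is a description of letters and no sign of binding. The 150 bases before the start are given for Cdc20 (chr5:137255800-137255949, minus strand) and Top2a (chr10:84473094-84473243, minus strand), which hold all 3 motifs, for Bub1b (chr3:126016917-126017066, plus strand), which holds none in this window, and for Ppp2r5d (chr9:21773603-21773752, plus strand), 1 of the 5 genes that passed. Capitals mark the motifs.
Cdc20: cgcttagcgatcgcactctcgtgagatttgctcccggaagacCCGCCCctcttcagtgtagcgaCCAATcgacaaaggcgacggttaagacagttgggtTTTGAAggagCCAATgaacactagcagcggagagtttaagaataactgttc
Top2a: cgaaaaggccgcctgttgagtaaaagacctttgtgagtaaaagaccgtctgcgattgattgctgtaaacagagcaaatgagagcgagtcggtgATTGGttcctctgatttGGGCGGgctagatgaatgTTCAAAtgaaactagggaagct
Bub1b: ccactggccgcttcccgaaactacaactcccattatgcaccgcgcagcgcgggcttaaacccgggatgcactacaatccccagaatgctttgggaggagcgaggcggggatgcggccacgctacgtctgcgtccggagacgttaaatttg
Ppp2r5d: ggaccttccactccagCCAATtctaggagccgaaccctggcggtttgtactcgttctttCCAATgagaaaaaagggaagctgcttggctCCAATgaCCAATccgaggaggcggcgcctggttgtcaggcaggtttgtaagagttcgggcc
Cdc20 has 2 CCAAT boxes, 1 CHR match and 1 GC box here, Top2a has 1 of each, and Ppp2r5d has 4 CCAAT boxes. Of the 5 promoter entries of the genes that passed, which cover 4 genes, 1 held CCAAT (20%, against 34.0% of all promoters). The CHR core was found in 1 (20%, against 16.2%) and the GC box in 3 (60%, against 30.5%). That is too few entries to tell the shares apart. The entries of Gpr37, Vsnl1 and Ptprd held no CCAAT.

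Genes of hormone response differed little as a group. Of 15 measured, 12 had a difference above 0, where 46.6% of all genes did, and 3 below, with a median of 0.12 and none past the threshold. Stat5a, the transcription factor downstream of the prolactin receptor, read 11.49, 12.06, 11.67 and 11.84 in the MNU cancers and 11.36, 11.07 and 11.04 in the spontaneous cancers, with no overlap (0.61 ± 0.18, limma adjusted p = 0.413). The oestrogen target Greb1 read 9.06 to 9.60 against 9.24, 7.33 and 7.30 (1.37 ± 0.56), where spontaneous array 1 fell inside the MNU range. A second Greb1 probe set, above the filter level on 6 arrays, gave -0.24. Tnfsf11, the RANK ligand through which progesterone acts on neighbouring cells, was high on MNU array 2 alone (11.85, against 5.50 to 7.48 on the other three). The receptor genes Esr1 (0.11 ± 0.45, above the filter level on only 3 of 36 arrays), Pgr (-0.72 ± 0.57) and Prlr (-0.70 ± 0.56) overlapped between the groups, as did the growth factor gene Areg (0.14 ± 0.37).

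Luminal identity genes were mixed, with 9 of 15 above 0. Gata3, a transcription factor of luminal cells, read 11.45, 10.99, 11.34 and 10.64 in the MNU cancers and 12.23, 11.57 and 12.17 in the spontaneous cancers. The groups did not overlap, and the difference did not pass (-0.88 ± 0.21, limma adjusted p = 0.195). Spdef differed by -1.09 ± 0.48 and Prom1 by 1.01 ± 0.42, with overlapping arrays. Of 12 basal and myoepithelial genes 11 were above 0 (median 0.25), among them Krt5 (0.25 ± 0.19) and Krt17 (0.72 ± 0.27), with Krt14 the exception (-0.28 ± 0.45), and none separated the groups. Milk protein genes had a median of -0.16, which became 0.28 without MNU array 4: the mean level of the 9 genes was 10.14 on that array and 12.29 to 12.72 on the other MNU arrays, against 11.94 to 12.64 in the spontaneous cancers.

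Lists of cells around the epithelium differed from each other. All 16 fibroblast and matrix genes were below 0 (median -0.38), with 2, Col5a1 (-0.74 ± 0.29) and Col6a3 (-0.49 ± 0.31), separating the groups as lower, where 5.51% of all genes did, and none past the threshold. The main fibrillar collagen gene Col1a1 read 11.93 to 12.75 against 12.72 to 13.11. Of 14 macrophage genes 12 were below 0 (median -0.30), and of 17 interferon response genes 16 were (median -0.53). As lower, 3 of the macrophage genes and 0 of the interferon genes separated the groups, where 5.51% of all genes did. Not every such list lay mostly below 0. Of 9 endothelial genes 5 were above 0 (median 0.01), as were 3 of 6 B and plasma cell genes, 2 of 3 red blood cell genes, both neutrophil genes and 10 of 17 chemokine genes (median 0.05). Of 12 T and NK cell genes 3 were above 0 (median -0.21), and 7 without MNU array 4. The antiviral genes Mx1, Mx2, Usp18 and Isg15 had interferon-list differences of -1.24 to -1.47, and in all 4 the spontaneous arrays 1 and 2 were high while array 3 lay inside the MNU range. Usp18, for example, read 9.89, 9.67, 10.15 and 8.33 against 11.29, 11.65 and 9.99. A second Mx2 probe set, above the filter level on 3 arrays, gave 0.20.

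Skeletal muscle markers varied between arrays of the spontaneous group, with list means of 9.93, 7.20 and 8.76 against 7.38 to 8.25 in the MNU group (10 of 11 genes below 0, median -0.88). The summed intensity of the 11 genes ran from 6017 to 16797 in the spontaneous group and from 6080 to 11457 in the MNU group. Ckm, for muscle creatine kinase, read 10.32, 6.59 and 8.54 in the spontaneous cancers and 6.77 to 7.17 in the MNU cancers. Spontaneous array 2 had the least muscle signal of its group. Its levels were above every MNU array for Stc1 (10.27), Gpr37 (11.23), Ptprd (9.92), Vsnl1 (11.42) and Ppp2r5d (10.56). That follows from the lack of overlap already given for these genes. Whether muscle content had a part in their differences was not tested. Mast cell genes ranged from 7.10 on MNU array 1 to 11.14 on MNU array 4 as list means and from 8.49 to 10.16 in the spontaneous cancers. Their median difference was -0.53, or -1.34 without MNU array 4.

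**Figure D4:**
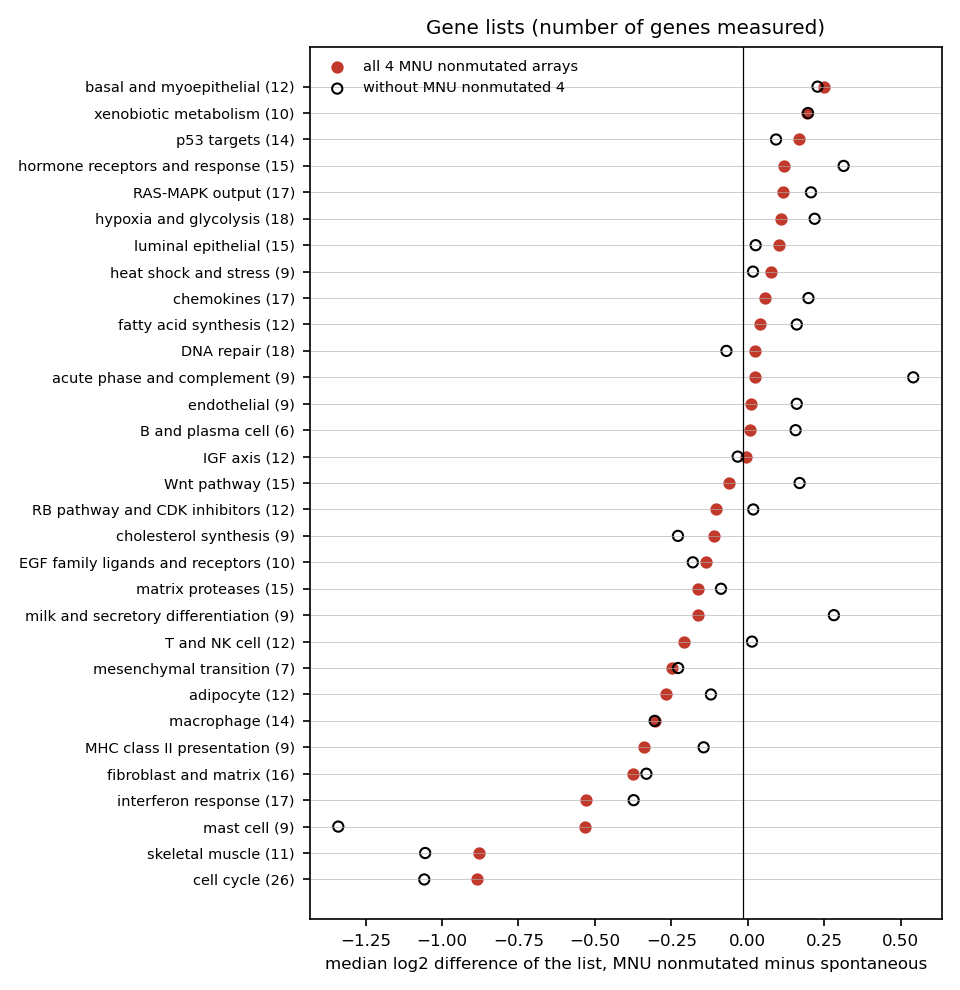
Median log2 difference (MNU nonmutated minus spontaneous) of each gene list with at least 5 measured genes, with all 4 MNU nonmutated arrays (red) and without array 4 (open); the vertical line is the median of all genes (-0.02). With all 4 arrays the cell cycle (-0.89), skeletal muscle (-0.88), mast cell (-0.53) and interferon response (-0.53) lists lie furthest left. Without array 4 the mast cell list (-1.34) lies further left than the cell cycle list (-1.06), and the milk list crosses 0.

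MNU methylates DNA, and several genes act on that damage. Mgmt, which removes methyl groups from guanine, read 8.39, 8.69, 8.36 and 9.75 in the MNU cancers and 8.35, 8.65 and 7.99 in the spontaneous cancers (0.47 ± 0.31), with overlap. Of 18 DNA repair genes 9 were above 0 and 9 below (median 0.02), and 1 separated the groups as lower, where 5.51% of all genes did. Alkbh2, a demethylase of DNA, differed by 0.34 ± 0.13 and the abasic site nuclease gene Apex1 by 0.35 ± 0.16, neither separating the groups. The most negative difference of the list was that of Brca1 (-0.44). Of 14 p53 target genes 11 were above 0 (median 0.17), and 10 without MNU array 4 (median 0.09). Of the 14, 1 separated the groups as higher, where 3.55% of all genes did. Ccng1 (0.52 ± 0.26) was the only one of Ccng1, Fas and Aen to separate the groups. Hras itself was not analysed here. Of 17 genes of RAS-MAPK output 11 were above 0 with a median of 0.11, and 13 with a median of 0.21 without MNU array 4. The list mean was 10.19 to 10.26 on MNU arrays 1 to 3, 9.73 on array 4 and 9.93 to 10.06 in the spontaneous cancers. Only Spry4, a feedback inhibitor, separated the groups as higher (0.29 ± 0.16), where 3.55% of all genes did.

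In xenobiotic metabolism (10 measured, median 0.19) 2 genes separated the groups, the detoxification genes Gstm1 and Nqo1, both with lower values in the MNU cancers, and in fatty acid synthesis 2 of 12 did so, where 5.51% of all genes did. None of the 4 passed. Gstm1 read 9.06, 8.66, 8.23 and 9.34 against 11.09, 10.29 and 10.25 (-1.72 ± 0.59, limma adjusted p = 0.471), and Nqo1 differed by -1.13 ± 0.40. Elovl6, a fatty acid elongase, differed by -1.02 ± 0.30 without overlap, while the desaturase gene Scd was high on MNU arrays 2 and 4 alone (12.19 and 12.25, against 7.93 and 9.05 on arrays 1 and 3 and 7.88 to 8.81 in the spontaneous cancers). The same arrays were the high ones for Fkbp5.

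Among matrix proteases and their receptors (15 measured, median -0.16) 4 genes separated the groups as lower, where 5.51% of all genes did. Plaur, the urokinase receptor, which promotes the activation of plasminogen, read 7.23, 7.34, 7.33 and 6.06 against 7.74, 8.11 and 7.84 (-0.91 ± 0.22, limma adjusted p = 0.203), and the stromal protease gene Mmp11 differed by -1.23 ± 0.69. Without MNU array 4 the difference of Plaur was -0.60. In the IGF axis (12 measured, median -0.01) the insulin receptor substrate gene Irs2 read 10.41 to 11.10 against 9.99 to 10.18 (0.75 ± 0.34). The imprinted genes Igf2 and H19 varied more within the MNU group than between groups: Igf2 read 10.39, 13.51, 10.85 and 13.20, and H19 read 8.12, 13.74, 9.40 and 12.61, with arrays 2 and 4 high for both. In the spontaneous cancers they read 12.97 to 13.23 and 10.71 to 12.82.

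The Wnt list had a median of -0.06 with the secreted Wnt regulators Dkk3 at 0.70 ± 0.27 (-0.43 for another probe set, above the filter level on 2 arrays) and Wif1 at -0.64 ± 0.29, and 15 of 18 hypoxia and glycolysis genes were above 0 with a median of 0.11. Cyclin D1 (Ccnd1, 0.48 ± 0.30) and Cdkn2a (0.86 ± 0.65) overlapped. Of the 9 genes of MHC class II presentation 6 were below 0, with a median of -0.34, or -0.14 without MNU array 4. RT1-Bb read 10.72, 11.96 and 10.37 on MNU arrays 1 to 3, close to 10 on array 4, and 6.53, 6.59 and 11.56 in the spontaneous cancers, so that 2 of the 3 spontaneous arrays were low (2.54 ± 1.02). Its second probe set, above the filter level on 24 arrays, gave -1.17, so the probe sets disagree, and Ciita, the activator of class II genes, differed by -0.50 ± 0.24.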

How the data were processed

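Total RNA of each sample was labelled as biotin cRNA and hybridised to 1 single-colour array, per the labels' protocols. The deposited values are linear intensities, 1 for each probe set on each array. The sources used here do not give how the authors summarised and scaled them, but every array has nearly the same trimmed mean. Arrays carry no read depth, and their number limits the precision. Of 31099 probe sets, 20832 carry 1 gene symbol, 436 several and 9831 none; 20764 matched a RefSeq gene identifier. Probe sets had to exceed 125.8, the 40th percentile over the table, on 3 or more arrays, and the one with the highest mean stood for its gene. Values were transformed as log2(intensity + 42.8), the 20th percentile. The limma model (version 3.58.1, R 4.3.3) had 10 group means over the 36 arrays and was tested on simulated data first. Replicate numbers were not used to pair the samples in this model.

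The members and gene lists were chosen with earlier results of these data known. Named genes were those past the threshold, filled to 10 in each direction by smallest p, up to 3 members of each list, and 11 further genes where measured. Tsc22d3, Gsdma, Adgrg2 and the cell cycle genes other than Cdc20, Aurka and Bub1b were named after their values were seen. The list members Isg15, Col1a1 and Krt14 were also named outside this rule. Alternatives covered scaling, the added constant, filters, probe sets, arrays in the fit, the spread model, quality covariates and single arrays left out.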

Additional observations from a re-analysis of the deposited data

Results flagged for a closer look

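Within the 4 MNU nonmutated arrays, 129 gene levels, list means and array measures were examined for an array far from the other three (gap over range above 0.829), which chance gives for about 1 in 20 such groups. 12 were past that limit, and in 9 of them the array apart was array 4.

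Array 4 stood apart in its 3′ to 5′ ratios for hexokinase (12.25, against 2.27 to 2.48 on the other three) and GAPDH (1.56, against 1.03 to 1.06). It was the low array for the mean level of the milk list (10.14, against 12.29 to 12.72), the B and plasma cell list (7.76, against 8.73 to 8.85), the acute phase and complement list (9.33, against 10.42 to 10.56), the RAS-MAPK output list (9.73, against 10.19 to 10.26) and the skin epidermis list (7.15, against 7.55 to 7.60), and for Plaur (6.06, against 7.23 to 7.34). It was the high array for the p53 target list (10.18, against 9.98 to 9.996).

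Array 1 stood apart as high for Pus7l (8.60, against 8.27 to 8.31) and as low for the mesenchymal transition list (9.61, against 9.85 to 9.88). Array 2 stood apart as high for the muscle myosin gene Myh4 (6.25, against 5.49 to 5.54).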

How the results depend on the processing

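Genes past the threshold, 5 in the comparison with spontaneous cancers, numbered 3 with an added constant of 16, with no filter on low values, with the 33 cancer arrays, or without MNU array 4 and with quantile normalization (the last chosen after seeing the data). The count was 2 with the mean of all probe sets of a symbol and 0 with the 7 arrays alone (911 at an unadjusted limma p under 0.05, differences unchanged) or with the actin ratio (391). It was 411 (144 higher, 267 lower, including 17 of 26 cell cycle genes as lower) with array weights, whose estimation stopped before it converged and which gave MNU array 4 a weight of 0.22. Leaving out 1 array gave 2 to 8. Stc1 and Gpr37 lost their call in 2 of 23 settings each, Ptprd in 6, Vsnl1 in 15 and Ppp2r5d in 17, with no change of direction. Against the other induced cancers the count was 1 with array weights (Gsdma) and 0 to 2 with 1 array left out. For MNU mutated against spontaneous cancers, 10 genes became 6 with quantile normalization, with a constant of 16 or with the filter at the 60th percentile, 3 with median centring, and 1 to 11 with 1 array left out.

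The replicate block gave the same 5 genes in the main comparison, 0 against the other induced cancers and 3 for the MNU mutated cancers. Deviations of same-numbered arrays correlated at 0.087, 0.060 and -0.20, and those of differently numbered arrays at -0.13 to 0.21. With 3 same-numbered pairs, this cannot show whether the numbers stand for anything shared.

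Differences near 0 changed sign. Esr1 was -0.29 with array weights, -0.029 without MNU array 4 and with quantile normalization, and from -0.35 to 0.35 with 1 array left out, below 0 without MNU array 2, MNU array 4 or spontaneous array 2. Areg was -0.14 with the actin ratio and -0.064 without MNU array 4 and with quantile normalization. H19 ranged from -1.42 to 0.46 with 1 array left out, above 0 without MNU array 1, MNU array 3 or spontaneous array 2. Prlr was 0.093 with the hexokinase ratio, and Tyms was 0.017 with the actin ratio. The cause was not tested. With 4 and 3 arrays, signal near background limits Vsnl1, Edil3, Misfal, Esr1, Gsdma, Wif1, Ckm, Myh4, Tnfsf11 and Ifitm10, whose probe sets exceeded the filter level on 3 to 11 of 36 arrays.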
